A study of Mus musculus with 8 samples.

Results

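The lipoxygenase genes of skin and leukocytes were followed by RNA sequencing in mouse wound skin. They were selected by symbol from the gene column of the deposited count table, which held all 8 of them among 18540 genes. They are Alox12e, Alox8, Alox12, Alox12b, Aloxe3, Alox15 and Alox5, which encode 7 lipoxygenases, and Alox5ap, which encodes the membrane protein that presents arachidonic acid to the product of Alox5. All 8 passed the low-count filter, which retained 15147 genes for testing. The control group held 4 samples labelled con and numbered 1, 2, 3 and 5, written control-1 and so on. The other group held 4 samples labelled shiyan, whose numbers (1, 2, 4 and 5) are those of the Z1C2Z samples in the study. Where values are listed for a group without sample names, they follow the order of these numbers. Z1C2Z is the ZCZ nano-composite of ZnO2 and CeO2 in a zinc imidazolate framework with the higher proportion of CeO2, which was injected at the wound edge at 100 μg/kg, while control wounds received PBS. The treated tissue was taken after 15 days of treatment. The labels give the tissue as skin and name no strain, sex or age. The study wounded C57BL mice and older diabetic db/db mice, which lack a working leptin receptor, and its text does not say which of them were sequenced. Each mouse carried a pair of wounds and the labels tie no sample to a mouse, so the p-values below measure the spread between these samples only.

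Lipoxygenases are iron enzymes that add molecular oxygen to polyunsaturated fatty acids such as arachidonic and linoleic acid. In the epidermis the products of Alox12b and Aloxe3 act one after the other on linoleate-containing acylceramides, a step needed for the lipid envelope of cornified cells and the water barrier, and loss of either gene causes ichthyosis. In neutrophils, mast cells and macrophages the product of Alox5 starts the synthesis of leukotrienes, which attract leukocytes and make vessels leaky.

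Promoter sequences are given for Alox12e (Entrez 11685), Alox8 (Entrez 11688) and Alox12b (Entrez 11686). They were read from RefSeq windows on GRCm38.p6, from 250 bases before to 50 bases after the start of each gene, written 5′ to 3′ on the strand of the gene. Capitals mark GC boxes (GGGCGG, or CCGCCC where the box lies on the other strand) and, in Alox12e, a CCAAT box on the other strand (ATTGG). The Alox12e window is chr11:70322481-70322780 on the minus strand, the Alox8 window chr11:69197794-69198093 on the minus strand and the Alox12b window chr11:69156822-69157121 on the plus strand.
Alox12e: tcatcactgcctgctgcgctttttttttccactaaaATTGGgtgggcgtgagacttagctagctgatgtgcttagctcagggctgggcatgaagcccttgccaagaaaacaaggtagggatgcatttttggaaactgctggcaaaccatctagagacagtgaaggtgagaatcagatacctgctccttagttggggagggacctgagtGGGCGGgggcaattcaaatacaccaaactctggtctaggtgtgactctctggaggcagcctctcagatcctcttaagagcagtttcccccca
Alox8: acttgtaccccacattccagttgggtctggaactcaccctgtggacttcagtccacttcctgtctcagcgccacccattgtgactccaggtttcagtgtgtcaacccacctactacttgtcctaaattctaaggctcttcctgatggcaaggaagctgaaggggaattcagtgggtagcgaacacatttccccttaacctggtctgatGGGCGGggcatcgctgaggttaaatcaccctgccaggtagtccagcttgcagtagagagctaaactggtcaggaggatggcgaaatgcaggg
Alox12b: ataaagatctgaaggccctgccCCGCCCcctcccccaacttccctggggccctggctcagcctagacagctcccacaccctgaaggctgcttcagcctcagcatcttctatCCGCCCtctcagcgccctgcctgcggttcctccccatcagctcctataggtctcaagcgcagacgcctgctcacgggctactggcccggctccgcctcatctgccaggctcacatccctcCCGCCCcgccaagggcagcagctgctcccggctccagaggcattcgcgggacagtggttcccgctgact
The first base of the GC box lay 42 bases before the start in both Alox12e and Alox8, whereas Alox12b had 3 such boxes, at 228, 139 and 19 bases before its start. At equal positions the Alox12e and Alox8 windows shared 79 of 300 bases (26.3%). The windows held 50.7% G and C in Alox12e, 52.7% in Alox8 and 66.0% in Alox12b, beside a median of 52.7% over all 32851 promoters of the table. RefSeq windows were matched for 5 of the 8 genes, the other two being Alox12 and Alox5, while Alox5ap, Alox15 and Aloxe3 were not matched. A GC box on either strand was found in 5 of these 5 windows and in 35.7% of all promoters. TATAAA was in 0 of the 5 (13.6% of all promoters) and the AP-1 site TGANTCA in 0 of the 5 (7.81%), on both strands. CCAAT was in 1 of the 5, that of Alox12e, and in 37.4% of all promoters. No match overlapped a match of another motif, and a match describes letters in the window only.

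In the RefSeq gene order, 6 of the 8 genes lie on chromosome 11 in a pair of clusters. Aloxe3, Alox12b and Alox8 follow each other with no other protein-coding gene between them, and so do Alox12, Alox12e and Alox15, with 64 protein-coding genes between the clusters. The fold changes of Alox12, Alox12e and Alox15 were all above 0, whereas those of Aloxe3, Alox12b and Alox8 did not share a sign. All 50-base stretches of the longest coding transcripts of Alox12e, Alox12b, Aloxe3, Alox15 and Alox5 were found in no other gene. The shared percentage was 0.508% for Alox12, 2.05% for Alox8 and 7.74% for Alox5ap, the last through an antisense transcript, Gm19719, that the count table does not list. The strand setting of the counting is not given in the sources used here, so reads from Alox5ap and from its antisense partner cannot be told apart.

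Sequencing depth lay between 28856790 and 38974888 counts per sample. All values below are CPM, counts scaled to a common library size after TMM normalization, and a gene was called at an adjusted p under 0.05 in edgeR's quasi-likelihood test with an absolute log2 fold change over 1. Keratinocyte markers were abundant in every sample, with summed CPM of 4363 to 6916 for 6 basal genes and 8416 to 18310 for 12 genes of differentiated epidermis. Hair follicle genes differed widely. Their summed CPM over 17 genes was 744, 2534, 3979 and 675 in control samples and 10000, 17400, 16720 and 4856 in Z1C2Z samples. Of the 17 genes, 15 were called higher, beside 2.15% of all tested genes. Over the whole table no adjusted p was below 0.0232, and every call therefore lay near the threshold of 0.05.

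Of the 8 genes, 1 was called higher in the Z1C2Z group and 0 were called lower, beside 2.15% of all tested genes called higher and 1.25% called lower (3.4% in either direction). The called gene was Alox12e. The values of the 4 Z1C2Z samples lay above those of all 4 control samples for 2 of the 8 genes, Alox12e and Alox12, beside 8.45% of all tested genes. None lay wholly below, beside 8.82% of all tested genes. The fold changes were above 0 for 5 genes and below 0 for 3, and their median on the log2 scale was 0.32 beside 0.01 over all tested genes.

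**Figure D1:**
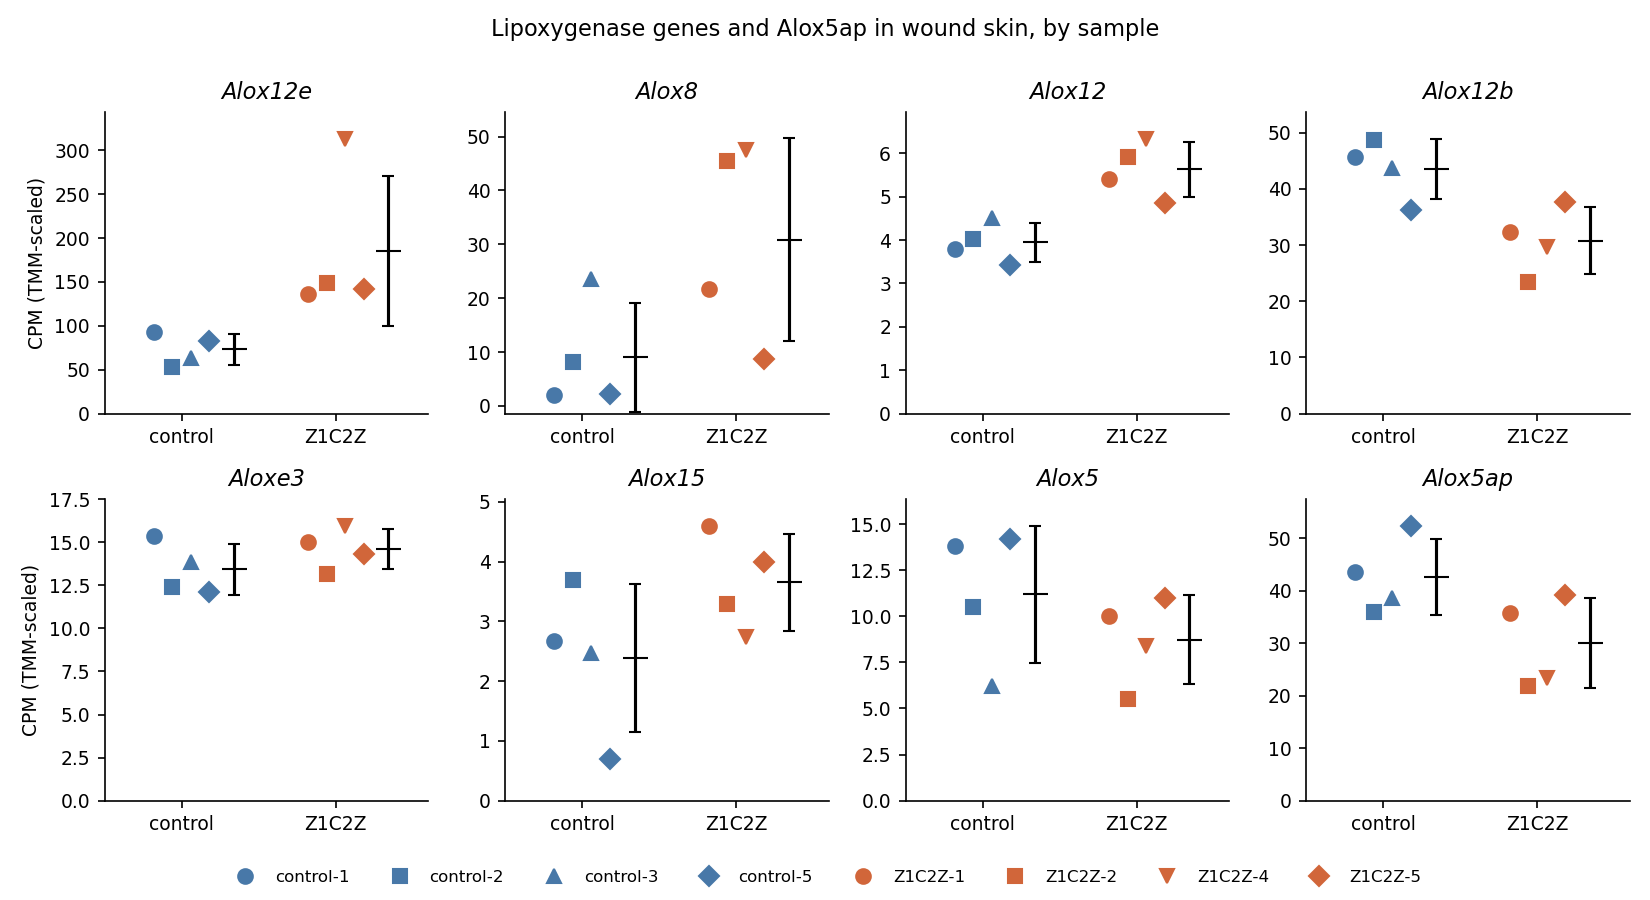
TMM-scaled CPM of the 7 lipoxygenase genes and Alox5ap in each of the 4 control and 4 Z1C2Z samples, with the group mean and SD beside the points. Alox12e and Alox12 have no Z1C2Z sample within the control range, and Alox8 runs from 1.99 to 47.5 CPM.

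**Figure D2:**
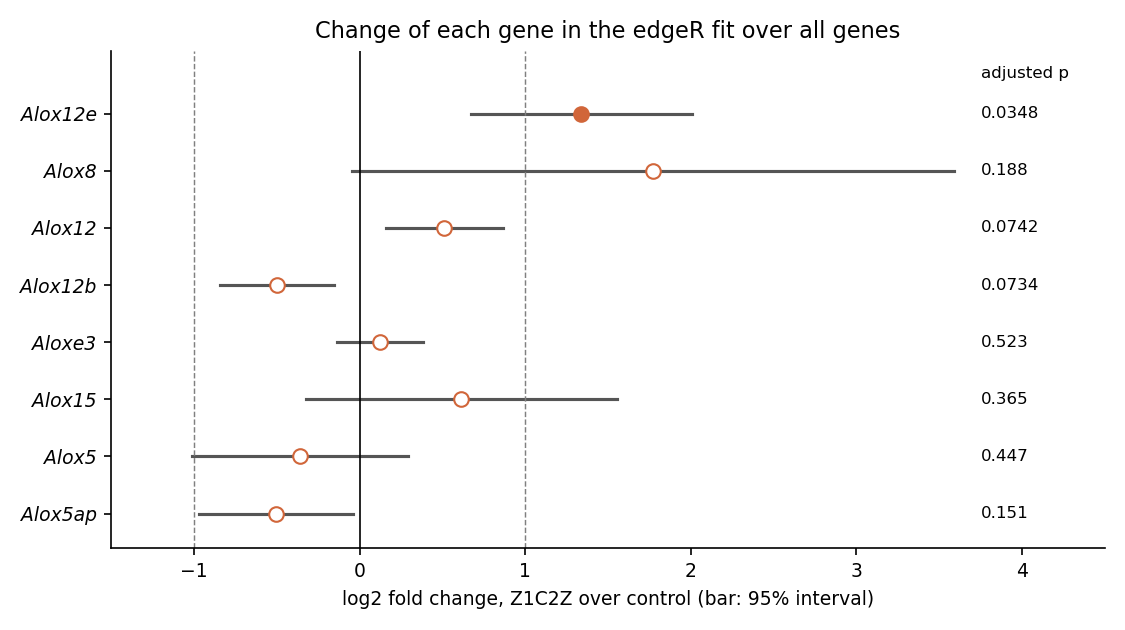
Log2 fold change of each gene between the Z1C2Z and control groups with its 95% interval and adjusted p from the edgeR fit over all genes. The filled point is the gene that was called, Alox12e, and dashed lines mark the fold change threshold of 1 in either direction.

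Alox12e encodes the epidermal 12S-lipoxygenase of the mouse, an enzyme whose human counterpart is a pseudogene. Its CPM was 93.4 in control-1, 53.5 in control-2, 63.1 in control-3 and 82.5 in control-5. In the Z1C2Z group it was 136 in Z1C2Z-1, 149 in Z1C2Z-2, 313 in Z1C2Z-4 and 142 in Z1C2Z-5. All treated samples lay above all control samples, and Z1C2Z-4 stood far above the other three, which were close together. Alox12e rose 2.53-fold on average, from 73.1 ± 18.1 to 185 ± 85.4 CPM (SD, n = 4 in each group), with a log2 fold change of 1.34 (SE 0.297, 95% interval 0.671 to 2.01, adjusted p = 0.0348 by edgeR). The exact permutation test, two-sided and with 70 arrangements of the samples, gave p = 0.0286, the smallest that 4 samples against 4 allow. Any gene whose groups do not overlap reaches this value. Without Z1C2Z-4 the log2 fold change was 0.96 and the gene was no longer called (adjusted p = 0.0876). Leaving out Z1C2Z-1, Z1C2Z-2 or any control but control-1 also ended the call, with adjusted p of 0.0599 to 0.0923 and log2 fold changes of 1.22 to 1.48. In 4 of the 8 fits that leave out 1 sample, those that drop control-5 or any Z1C2Z sample but Z1C2Z-5, no gene of the table reached an adjusted p under 0.05, while 3100 to 4208 genes had an unadjusted p under 0.05.

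Alox8 encodes the 8S-lipoxygenase, the mouse counterpart of human ALOX15B. It had 1.99 CPM in control-1, 8.21 in control-2, 23.6 in control-3 and 2.25 in control-5, against 21.7 in Z1C2Z-1, 45.4 in Z1C2Z-2, 47.5 in Z1C2Z-4 and 8.62 in Z1C2Z-5. Control-3 exceeded Z1C2Z-1 and Z1C2Z-5, so the groups overlapped, and the highest sample was 23.9-fold above the lowest. This was the widest range of the 8 genes. Alox8 averaged 9.0 ± 10.1 CPM without and 30.8 ± 18.9 CPM with treatment (SD, n = 4 in each group). Its log2 fold change of 1.77 exceeded that of Alox12e, but with an SE of 0.806 it did not pass the test (95% interval -0.05 to 3.59, adjusted p = 0.188 by edgeR). Without control-3 it was 2.88 with an adjusted p of 0.0518, and without both Z1C2Z-2 and Z1C2Z-4 it was 0.75.

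Alox12 (Entrez 11684) encodes the 12S-lipoxygenase known from platelets, which is also made in skin. Its CPM was low, at 3.80, 4.02, 4.52 and 3.44 in the control samples and at 5.42, 5.91, 6.33 and 4.85 in the Z1C2Z samples. The groups did not overlap, and the lowest treated sample, Z1C2Z-5, lay just above the highest control sample, control-3. Its log2 fold change of 0.51 (SE 0.157) missed the threshold in edgeR's test (adjusted p = 0.0742) and passed an adjusted p of 0.05 in DESeq2 (adjusted p = 0.0232). The exact two-sided permutation p of 0.0286 follows from the lack of overlap and adds nothing to it. For the genes whose groups overlapped, this test gave p of 0.0571 (Alox12b) to 0.371 (Alox5).

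Hair follicle genes, among them the inner root sheath keratin Krt25, moved with these genes. Ordered by Alox12, the 8 samples fell in the same order as by the summed hair follicle CPM given above, apart from Z1C2Z-2 and Z1C2Z-4, which changed places. Alox8 followed a similar order, with its lowest values in control-1 and control-5 and its highest in Z1C2Z-2 and Z1C2Z-4. Across the 8 samples, which share the group difference, Pearson's r of log2 CPM between Alox8 and Alox12 was 0.915, and 0.921 after each group was centred on its own mean. Alox12e did not share that order within the control group, where control-1 and control-5 had the lowest hair follicle sums and the highest Alox12e. Of 8 platelet genes 4 could be tested and 0 were called, beside 3.4% of all tested genes called in either direction. Fold changes were below 0 for 3 of the 4. Gp9 and Gp6, subunits of platelet membrane glycoproteins, had at most 5 counts in any sample. Pf4, a platelet chemokine, stood at -0.99 on the log2 scale of fold changes (adjusted p = 0.0648 by edgeR). Ppbp stood at -1.43 (adjusted p = 0.174 by edgeR) and Itga2b at -0.55 (adjusted p = 0.0861 by edgeR). Itga2b had 139 to 269 counts per sample, and its Z1C2Z samples lay below all control samples in CPM. The other tested platelet gene, Gp5, went the other way, at 2.30 (SE 0.834, adjusted p = 0.113 by edgeR). It had only 1 to 9 counts in control samples and 4 to 41 in Z1C2Z samples. Genes of differentiated epidermis had fold changes above 0 in 12 of 12 cases, beside 51.1% over all tested genes, with a median of 0.46 on the log2 scale. Of them 1, Krt2, was called higher, beside 2.15% of all tested genes. Krt2 averaged only 0.272 CPM in control samples and 2.62 CPM in Z1C2Z samples. The part of hair follicle and epidermal content in the levels of Alox12e, Alox8 and Alox12 was not tested, and in bulk tissue a change in the number of cells of a type cannot be told apart from a change in RNA per cell.

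**Figure D3:**
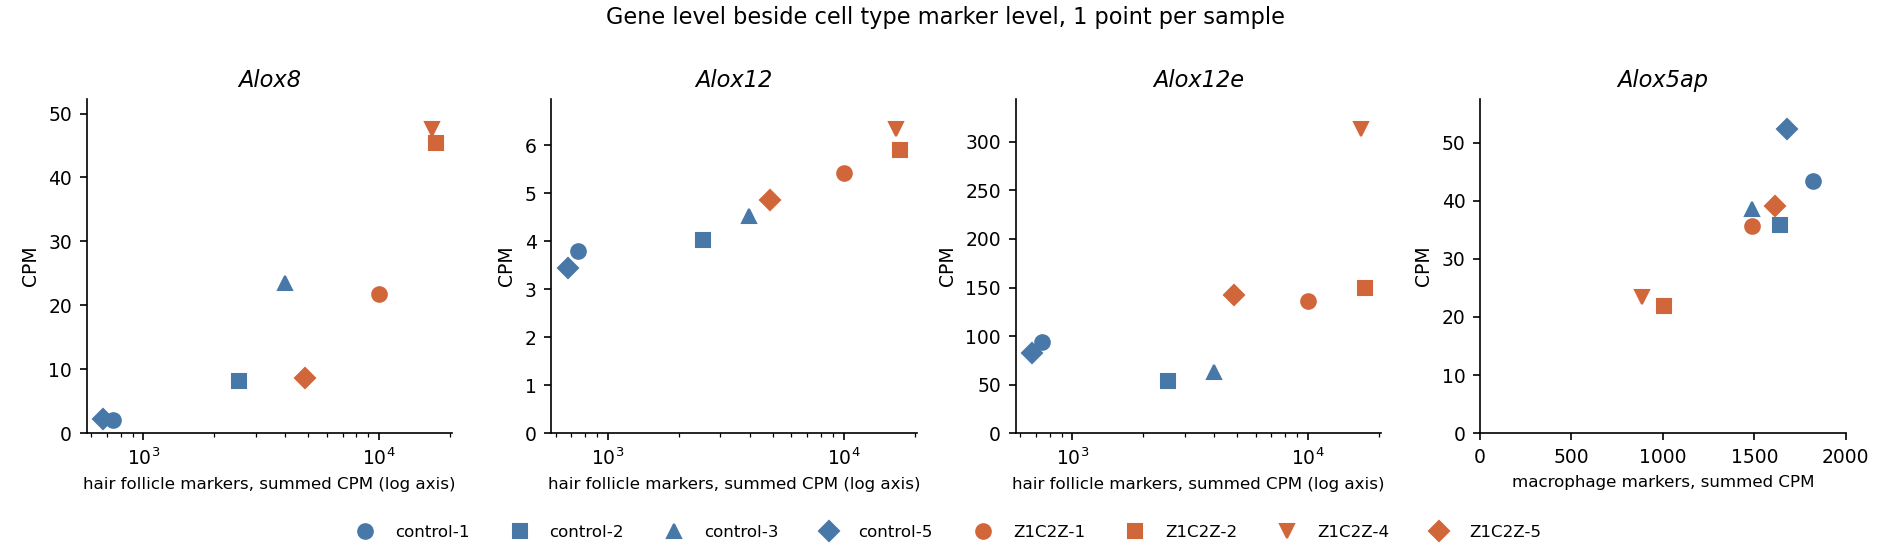
CPM of Alox8, Alox12 and Alox12e against the summed CPM of 17 hair follicle genes on a log axis, and CPM of Alox5ap against the summed CPM of 10 monocyte or macrophage genes, with 1 point per sample. Alox12 rises along the hair follicle axis across both groups, Alox12e does not within the control group, and Alox5ap is lowest in Z1C2Z-2 and Z1C2Z-4, where the macrophage sum is lowest.

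Of the barrier pair, neither gene passed the test. Alox12b, whose product is the 12R-lipoxygenase, had 45.7 CPM in control-1, 48.7 in control-2, 43.6 in control-3 and 36.2 in control-5, against 32.4 in Z1C2Z-1, 23.4 in Z1C2Z-2, 29.7 in Z1C2Z-4 and 37.7 in Z1C2Z-5. The treated samples were lower except Z1C2Z-5, which lay above control-5 and made the groups overlap. Alox12b had a log2 fold change of -0.50 (SE 0.152, 95% interval -0.84 to -0.16), which missed the threshold in edgeR's test (adjusted p = 0.0734). It passed in DESeq2 (adjusted p = 0.0239) and in edgeR without Z1C2Z-5 (adjusted p = 0.0350).

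Aloxe3 (Entrez 23801) encodes the hydroperoxide isomerase that takes up the product of the 12R-lipoxygenase. It had 15.4, 12.4, 13.9 and 12.1 CPM in the control samples and 15, 13.1, 15.9 and 14.3 CPM in the Z1C2Z samples. The groups overlapped over most of their range, and the highest sample was only 1.32-fold above the lowest, the narrowest range of the 8 genes. A log2 fold change of 0.12 did not pass the test (adjusted p = 0.523 by edgeR), with a 95% interval of -0.14 to 0.38.

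The counts of the pair were also divided within each sample, a comparison chosen after the values had been seen and therefore given as a description, without a p-value. There were 2.98, 3.92, 3.15 and 2.99 counts of Alox12b per count of Aloxe3 in the control samples, and 2.16, 1.78, 1.86 and 2.64 in the Z1C2Z samples. All treated samples lay below all control samples. The mean ratio was 3.26 ± 0.449 without and 2.11 ± 0.387 with treatment (SD, n = 4 in each group), a log2 difference of -0.64. This ratio does not depend on how the libraries were scaled.

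Alox15 (Entrez 11687) encodes the leukocyte-type lipoxygenase of resident macrophages. Its CPM was 2.67 in control-1, 3.69 in control-2, 2.48 in control-3 and 0.704 in control-5, against 4.6 in Z1C2Z-1, 3.29 in Z1C2Z-2, 2.74 in Z1C2Z-4 and 3.99 in Z1C2Z-5. Control-5, with 25 counts, was well below the rest, and the other samples overlapped. Alox15 had a log2 fold change of 0.61 (SE 0.417), which did not pass the test (adjusted p = 0.365 by edgeR), and one of 0.31 without control-5.

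Alox5 (Entrez 11689) had 13.8 CPM in control-1, 10.5 in control-2, 6.23 in control-3 and 14.2 in control-5, against 10.04 in Z1C2Z-1, 5.49 in Z1C2Z-2, 8.41 in Z1C2Z-4 and 10.98 in Z1C2Z-5. The lowest sample was treated and the next lowest was control-3, and the ranges overlapped broadly. Its log2 fold change of -0.36 (SE 0.289, 95% interval -1.01 to 0.29) did not pass the test (adjusted p = 0.447 by edgeR).

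Alox5ap (Entrez 11690), the partner of Alox5, had 43.5 CPM in control-1, 35.9 in control-2, 38.7 in control-3 and 52.3 in control-5, against 35.7 in Z1C2Z-1, 21.9 in Z1C2Z-2, 23.5 in Z1C2Z-4 and 39.1 in Z1C2Z-5. Z1C2Z-2 and Z1C2Z-4 were below every other sample, while Z1C2Z-1 and Z1C2Z-5 lay close to or within the control range. With an SE of 0.207 (95% interval -0.97 to -0.04), its log2 fold change of -0.50 did not pass the test after adjustment (adjusted p = 0.151 by edgeR). Without both Z1C2Z-2 and Z1C2Z-4 it was -0.19. The ratio of Alox5ap to Alox5 counts, also chosen after the values had been seen, was 4.11 ± 1.42 without and 3.47 ± 0.499 with treatment (SD, n = 4 in each group).

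Leukocyte markers were read beside these genes. Over all tested genes, 3.4% were called in either direction, so 0 calls in lists this short do not show that a cell type is unchanged. The summed CPM of 10 monocyte or macrophage genes was 1486 to 1821 in the control samples, 1485 in Z1C2Z-1, 1007 in Z1C2Z-2, 884 in Z1C2Z-4 and 1613 in Z1C2Z-5. Of the 10 genes 0 were called and 9 had fold changes below 0. The macrophage sum was lowest in the same samples as Alox5ap, Z1C2Z-2 and Z1C2Z-4. This match was not particular to macrophage genes. The neutrophil sum was also lowest there, at 403.7 CPM in Z1C2Z-2 and 175.7 CPM in Z1C2Z-4. So was the platelet sum, at 39.02 and 29.63 CPM in these samples. The mast cell sum was lowest in Z1C2Z-1. Neutrophil genes summed to 606 to 1559 CPM in the control group and 176 to 713 CPM in the Z1C2Z group. Among 9 tested neutrophil genes 0 were called and 8 had fold changes below 0, while 51.1% of all tested genes lay above 0. In this list Ly6g and Elane had at most 6 and 2 counts in any sample. Csf3r, Cxcr2 and Mmp9 averaged 41.74, 34.69 and 45.34 CPM in the control group and 18.35, 16.35 and 27.45 in the Z1C2Z group. The sum came mainly from S100a8 and S100a9. Mast cell genes summed to 203 to 278 CPM and 176 to 216 CPM in the control and Z1C2Z groups. Of the 8 genes 0 were called and 7 had fold changes below 0. Eosinophil genes summed to only 6.00 to 29.2 CPM and 20.4 to 37.0 CPM, with 0 of 4 tested genes called and 3 with fold changes above 0. Epx, the eosinophil peroxidase, had 0 counts in the control samples and at most 1 in a Z1C2Z sample. The part of leukocyte content in the levels of Alox5, Alox5ap and Alox15 was not tested.

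Levels of different genes were compared as CPM per kilobase of the longest coding transcript in GENCODE M21. On this scale Alox5ap led the control group with 34.04 ± 5.75 (SD, n = 4), followed by Alox12e with 30.2 ± 7.47 and Alox12b with 17.9 ± 2.19. Aloxe3 at 4.45 ± 0.493, Alox5 at 3.97 ± 1.31, Alox8 at 2.79 ± 3.14, Alox12 at 1.31 ± 0.151 and Alox15 at 0.990 ± 0.515 came after them. Alox5ap and Alox12e did not differ beyond their spread, nor did neighbours from Aloxe3 down to Alox15. The place of Aloxe3 depends on the length used, since over the union of all its annotated exons it was 2.10, below Alox5 and Alox8. Over exon unions Alox12 (0.966) and Alox15 (0.972) also changed places. In the Z1C2Z group Alox12e led with 76.4 ± 35.3, followed by Alox5ap with 24.0 ± 6.91, Alox12b with 12.7 ± 2.45 and Alox8 with 9.55 ± 5.85. The other four lay between 1.52 and 4.84 on average.

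Of the summed length-scaled level of the 7 enzyme genes, Alox12e made up 48.6% ± 8.37 in control and 67.9% ± 6.21 in Z1C2Z samples (SD, n = 4 in each group). Alox12b made up 29.3% ± 4.98 and 12.5% ± 4.63, and Alox8 4.67% ± 5.2 and 8.56% ± 4.87. The sum itself was 61.6 ± 6.28 and 109.9 ± 38.6 CPM per kilobase. It was 55.4 to 70.3 in the control samples, 88.5 in Z1C2Z-1, 94.99 in Z1C2Z-2, 168 in Z1C2Z-4 and 88.7 in Z1C2Z-5. Alox12e made up 39.9% to 56.6% of it in the control samples and 63.5% to 77.1% in the Z1C2Z samples. Shares depend on each other, so they are given as a description.

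**Figure D4:**
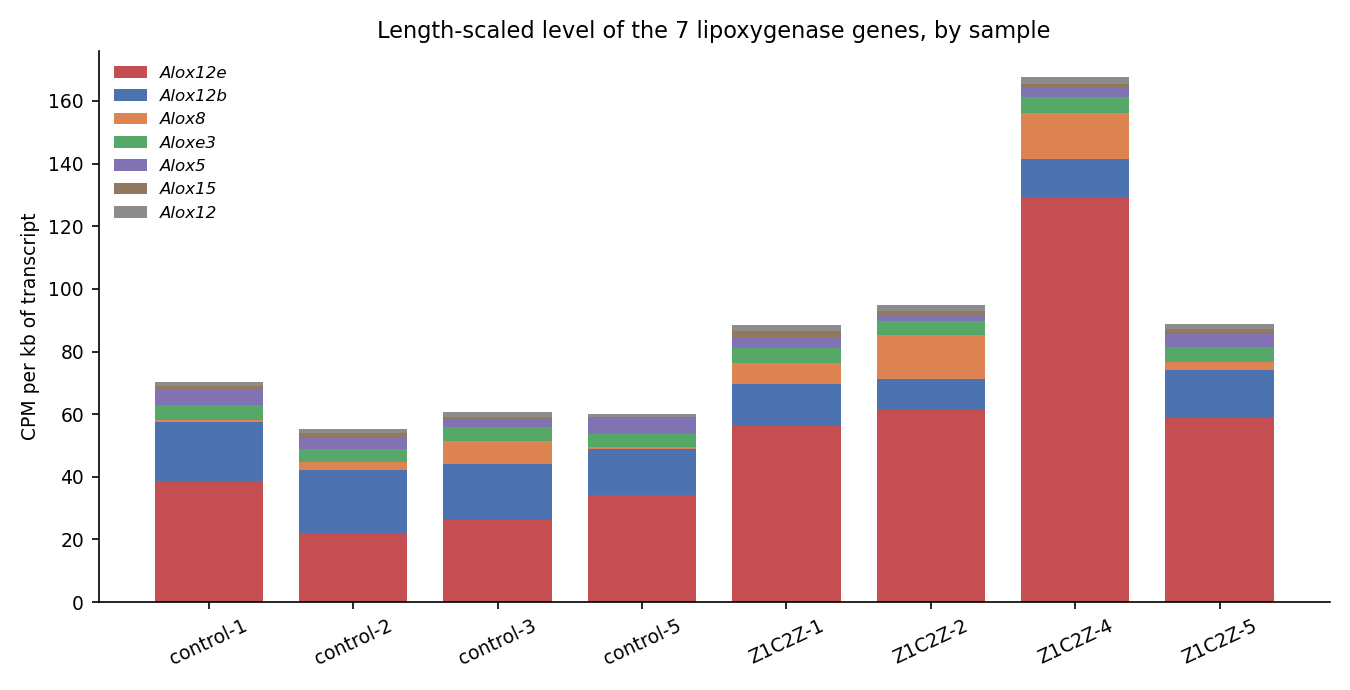
Stacked CPM per kilobase of transcript of the 7 lipoxygenase genes in each sample, with 1 bar per sample and 1 colour per gene. The total is 55.4 to 70.3 in the control samples and 88.5 to 168 in the Z1C2Z samples, and Alox12e is the largest segment of every bar.

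Genes that supply or use lipoxygenase products were counted over 3 lists. Of 14 leukotriene enzyme genes, among them Alox5 and Alox5ap, 13 were tested, 1 was called higher and 0 lower, beside 2.15% and 1.25% of all tested genes, and the median log2 fold change was -0.12. The called gene was Ggt1, which removes glutamate from leukotriene C4 and glutathione. Its CPM was 1.71 to 4.93 in the control samples and 7.60 to 15.9 in the Z1C2Z samples, without overlap, and its log2 fold change was 1.83 (SE 0.351, adjusted p = 0.0303 by edgeR). Mgst3, a microsomal glutathione transferase, was also separated between the groups but missed the threshold, at a log2 fold change of 0.88 (adjusted p = 0.0512 by edgeR). Ggt5, from the same list, went the other way from Ggt1 and had the higher control level of the pair. It averaged 16.32 CPM without and 9.446 CPM with treatment, and the groups overlapped. Ggt5 was not called, at -0.7911 on the log2 scale (adjusted p = 0.108 by edgeR). The genes of highest level were Lta4h, which makes leukotriene B4, Ptgr1, which inactivates it, and Dpep1, which cleaves leukotriene D4, with log2 fold changes of 0.09, 0.18 and 0.10 and adjusted p of 0.512, 0.387 and 0.666. Pla2g4a, which releases arachidonic acid from membranes, stood at -0.37 (adjusted p = 0.0722 by edgeR).

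Of 12 receptor genes for leukotrienes, hydroxy fatty acids and pro-resolving lipids, 10 were tested, and 1 was called higher and 0 lower, again beside 2.15% and 1.25% of all tested genes. Of the 10 fold changes 2 were above 0, as were 51.1% over all tested genes, and their median was -0.29 on the log2 scale. Gpr37, for which a pro-resolving lipid has been proposed as a ligand, had 0.676 to 3.47 CPM in the control samples and 4.71 to 7.86 CPM in the Z1C2Z samples. These ranges did not overlap, and its log2 fold change was 1.72 (SE 0.410, adjusted p = 0.0398 by edgeR). Cmklr1, Cysltr1 and Lgr6 had the highest levels, at 27.3, 22.5 and 17.9 CPM in the control group and 22.6, 21.5 and 18.5 CPM in the Z1C2Z group, and none of them passed the test. Fpr2, a formyl peptide receptor of neutrophils and macrophages that also binds lipoxin A4, had a log2 fold change of -1.41 with an SE of 0.565 and did not pass the test (adjusted p = 0.143 by edgeR).

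Of 18 genes of the epidermal acylceramide and hepoxilin pathway, Alox12b and Aloxe3 included, 18 were tested and 0 passed both thresholds. Without the fold change threshold 1 was higher and 1 was lower, beside 4.28% and 3.85% of all tested genes (8.13% in either direction), and the median log2 fold change was 0.02. Ugcg, the glucosylceramide synthase, had 182 to 248 CPM in the control samples and 139 to 172 CPM in the Z1C2Z samples. It fell by 0.54 on the log2 scale (SE 0.120, adjusted p = 0.0362 by edgeR), and no treated sample reached the control range. Cyp2s1, an epidermal cytochrome P450, had 9.38 to 11.3 CPM in the control samples and 15.9 to 21.7 CPM in the Z1C2Z samples. It rose by 0.83 on the log2 scale (SE 0.127, adjusted p = 0.0299 by edgeR). Elovl4, which lengthens very long fatty acids, had the highest level, at 1607 ± 483 CPM in the control group and 1867 ± 226 CPM in the Z1C2Z group (SD, n = 4 in each), and did not pass the test (adjusted p = 0.503 by edgeR). Slc27a4, a fatty acid transporter, had a log2 fold change of -0.04 (adjusted p = 0.886). Pnpla1, which joins linoleate to ceramides, had a log2 fold change of 0.52 and did not pass the test (adjusted p = 0.113 by edgeR). Like the call of Alox12e, the results for Ggt1, Gpr37, Ugcg and Cyp2s1 each lost an adjusted p under 0.05 in at least 4 of the 8 fits that leave out 1 sample.

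**Figure D5:**
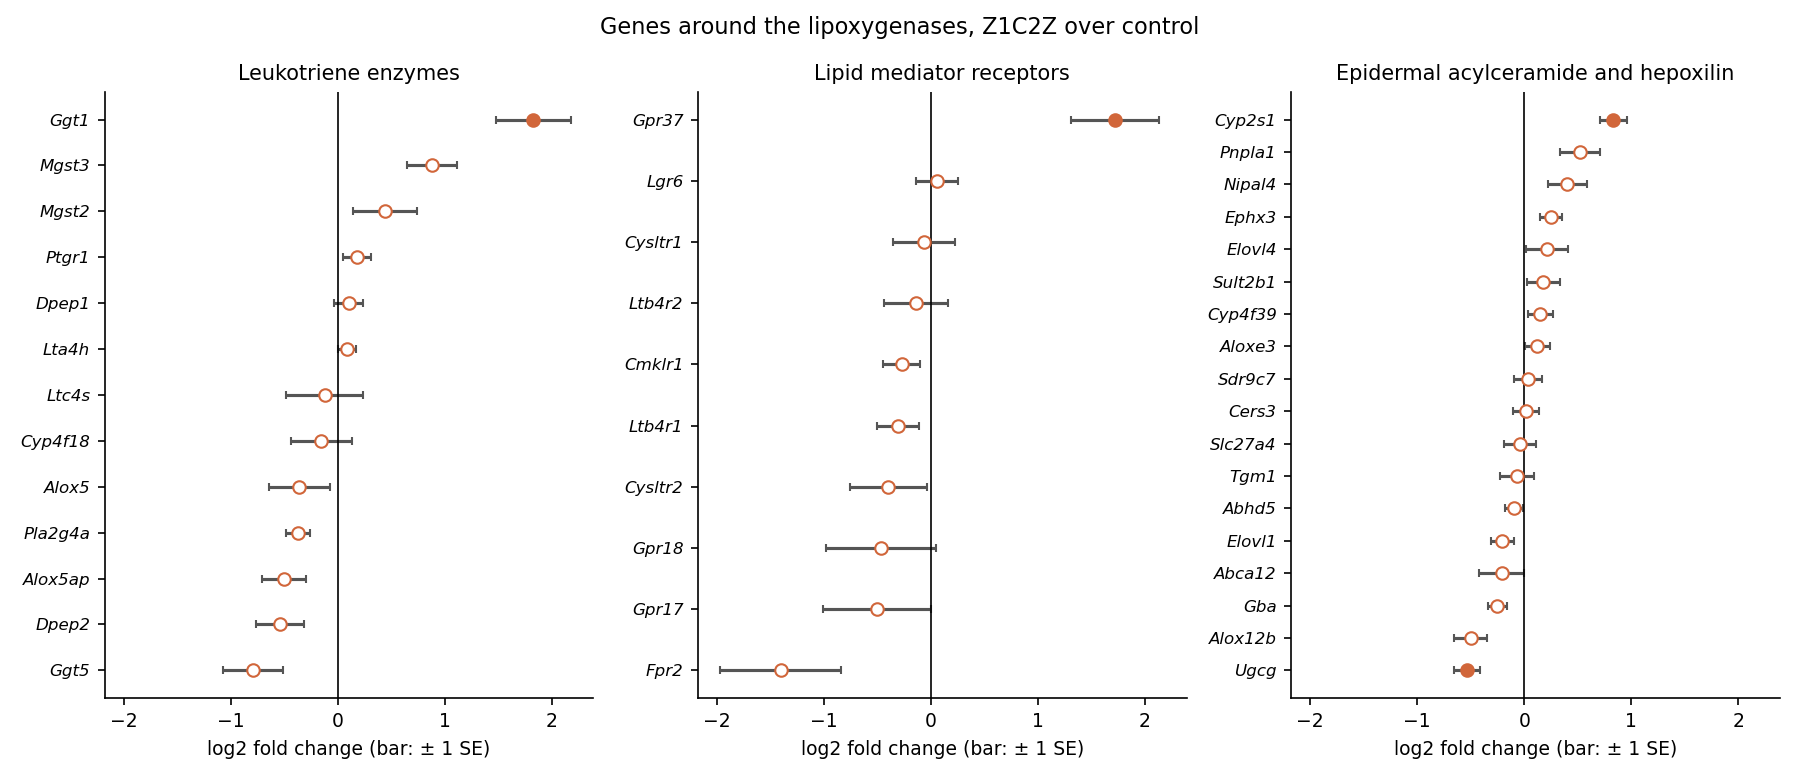
Log2 fold change with 1 standard error for the tested genes of the leukotriene enzyme, lipid mediator receptor and epidermal acylceramide and hepoxilin lists. Filled points have an adjusted p under 0.05 and are Ggt1, Gpr37, Cyp2s1 and Ugcg, while most genes lie near 0.

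The genes whose log2 CPM followed each lipoxygenase most closely were taken by Pearson's r over all 15147 tested genes and 8 samples, as a description. For Alox12e these included Trim29 (r = 0.989), Pex26, Sh3tc2 and Ppp1r13l. For Alox8 they were Tmem229b (r = 0.988), Engase, Slc6a13, Pm20d1 and Slco4c1. Alox12 was followed by Wdr31 (r = 0.995), Nkd2, Hoxc13, Gm9507 and Kcne1, of which Hoxc13, a homeobox gene of the hair shaft, is one of the hair follicle genes counted above. Alox5ap was followed by Igf2bp1 (r = 0.992), Gna13, Ust, Khnyn and Clec4d, a C-type lectin receptor of myeloid cells. Closest to Alox12b were Usp25 (r = 0.974), Slc10a3, Ccdc127, Rbms3 and Arntl2, and closest to Aloxe3 were P2ry4 (r = 0.961), Sh3bgrl2, Nalcn, Lrp4 and H60c. Alox15 was followed by Stx17 (r = 0.984), Zfp677, Relch, Rasa1 and Ddx11, and Alox5 by Smtnl2 (r = 0.991), Nat8l, Lbp, Osbpl9 and Serpinb6c. The number of genes with r over 0.9 differed between them, from 757 for Alox12, 358 for Alox5ap and 344 for Alox8 to 133 for Alox12e, 127 for Alox15, 65 for Alox12b, 45 for Alox5 and 24 for Aloxe3. All 8 samples share the group difference and the marker differences given above, and their part in the closeness was not tested. The closest genes were picked from 15147 over only 8 samples, and how high r would be by chance was not tested.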

How the data were processed

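RNA from wound skin was sequenced after rRNA depletion with dUTP in the second strand. The labels name Trizol and the study's methods another extraction kit. Unnormalized counts, 1 column per sample, were deposited by the authors. The aligner, genome build, annotation and strand setting are not given in the sources used here.

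The test was run with edgeR 4.0.16 in R 4.3.3 (filterByExpr, TMM, quasi-likelihood test, Benjamini-Hochberg adjustment over 15147 genes, no covariates). CPM used TMM library sizes and log2 CPM a prior count of 2. Standard errors were derived from the F statistic. Single values were tested with an exact two-sided permutation test. The alternatives were DESeq2 1.42.0, RLE size factors, each sample left out, a block for the sample number, a minimum of 10 counts in all samples, no low-count filter and, chosen after seeing the data, Z1C2Z-2 and Z1C2Z-4 both left out. The steps were tested on simulated counts. All libraries differed by more than sampling noise.

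The genes and lists were chosen with earlier results of these data known. The text names all 8 genes, list genes past an adjusted p of 0.05 with others of high level or defining role, and the 5 genes closest to each by Pearson's r, of which 1 is not reported here. Fpr2, Mgst3, Ggt5, Pla2g4a, Pnpla1, Pf4, Ppbp, Itga2b, Gp5, Csf3r, Cxcr2 and Mmp9 were named after their values were seen.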

Additional observations from a re-analysis of the deposited data

Results flagged for a closer look

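Among the Z1C2Z samples, the log2 CPM of Alox12e in Z1C2Z-4 stood apart from the others. The gap to the nearest sample was 0.888 of the range of the group, above Dixon's 95% critical value for 4 samples. Of 16 groups examined (8 genes in 2 groups) this was the 1 that passed, and chance passes about 1 in 20.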

How the results depend on the processing

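Across 14 alternatives for each of the 8 genes, 0 of 112 fold changes reversed, 100 stayed on their side of the threshold, 8 lost it and 4 gained it. All 8 losses were those of Alox12e, the only gene that had passed, which lost it in 8 of its 14 alternatives. The gains were in Alox12b, Alox12 and Alox8. With DESeq2, 491 genes were called higher and 345 lower over the whole table, beside 326 and 189 in edgeR. Leaving out 1 sample gave 0 to 463 higher and 0 to 316 lower genes in the table. It gave 0 to 1 higher and 0 lower among the 8 genes, 0 to 2 called leukotriene enzymes, 0 to 2 called receptors and 0 called acylceramide genes. Without both Z1C2Z-2 and Z1C2Z-4, chosen after seeing the data, 0 genes were called higher and 0 lower in the table in edgeR (1980 at an unadjusted p under 0.05), 0 of the 8 genes, 0 leukotriene enzymes and 0 receptors. Alox12e then had a log2 fold change of 0.93 (adjusted p = 0.280). Fewer samples entered these fits, and the cause was not tested.

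Samples 1, 2 and 5 share only a number between the groups. The deviations of same-numbered samples had correlations of -0.101, -0.062 and 0.323, so the numbers were not taken as pairs. With the replicate block, Alox12e had a log2 fold change of 0.93 (adjusted p = 0.0680) and Alox8 of 2.60 (adjusted p = 0.00579). The numbers of control-3 and Z1C2Z-4 occur in only 1 group, so these samples do not inform the group difference in this fit. Without control-3 Alox8 had a log2 fold change of 2.88, and without Z1C2Z-4 Alox12e had 0.96. What the block itself changed was not tested. Genes of a few CPM, such as Alox12 and Alox15, carry larger counting error.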

Other observations

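Of the 64 protein-coding genes between Alox8 and Alox12 on chromosome 11, 55 were tested, 2 were higher and 2 lower at an adjusted p under 0.05 in edgeR's test, beside 4.28% and 3.85% of all tested genes, with a median log2 fold change of -0.05. These were Efnb3 and Dvl2 (higher) and Chrnb1 and Dlg4 (lower), a number near that background. Per1, a circadian clock gene separated from Aloxe3 by Hes7 in the gene order, had a log2 fold change of -0.49 (adjusted p = 0.0456).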
